A study of Mus musculus with 19 samples.

Results

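Kinesins are motor proteins that walk along microtubules or take them apart, and their genes were described here across 19 mouse mammary tumours. The genes were taken from the deposited table by name: every protein-coding mouse gene whose symbol is Kif or Kifc followed by a number and, in some, a letter. This gave 42 of the 26796 genes in the table, which are all 42 such genes of the GENCODE M21 annotation. The membership rests on names alone, but the family and its comparison were chosen by measured values of these tumours, the fold changes between the groups and the scaled counts across all 19. By known function 12 were set down as mitotic kinesins, 15 as transport kinesins and 15 as other kinesins, and 39 of the 42 had enough counts to be tested. The 3 genes left out for low counts were all in the third class: Kif12 reached at most 3.78 expected counts in any tumour, Kif28 at most 16.2 and Kif2b at most 1.01.

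Polyadenylated RNA was sequenced from whole tumours of Met1, a transplantable mouse mammary carcinoma line, grown in mice that were given extracellular vesicles shed by neutrophils. In the first group, called 27HC (10 tumours), the neutrophils had been exposed to 27-hydroxycholesterol, an oxidised form of cholesterol that acts on liver X and oestrogen receptors. In the second group, called DMSO (9 tumours), they had been exposed to the solvent, dimethyl sulfoxide, so that tumours of both groups received neutrophil vesicles. The strain, sex and age of the mice, the vesicle dose and the time of treatment were not stated in the labels, nor was whether each tumour came from its own mouse, so p-values measure the spread between these samples, which may be partly technical.

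Kinesins use ATP to move along microtubules. During cell division a set of them builds the spindle, lines up the chromosomes and pinches the daughter cells apart, and the genes of most of that set are transcribed mainly in the G2 and M phases of the cell cycle. Another set carries vesicles, mitochondria and protein complexes through the cytoplasm of dividing and non-dividing cells alike, with the help of adaptor proteins such as kinesin light chains.

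The promoters of the mitotic and the transport genes differ in a short motif. The sequences are shown because the motif is shared by mitotic genes that varied together to different degrees between tumours. The CHR element, TTTGAA, is a promoter motif known for holding cell cycle genes silent until G2, and CCAAT is a box that often lies upstream of it. In RefSeq promoter windows of GRCm38.p6, 250 bases before to 50 after the annotated start, searched on both strands, 33 of the 42 kinesin genes matched with 37 windows. TTTGAA was in 10 of 11 windows of mitotic kinesins (90.9%), against 1 of 12 windows of transport kinesins (8.33%), 3 of 14 windows of other kinesins (21.4%) and 17.9% of all 32851 promoter windows. In 8 of the 11 mitotic windows (72.7%) a match began within 30 bases of the start, a distance chosen after the positions were seen. Such a match was in none of the 12 transport windows and in 3.19% of all windows. Among the 14 windows of other kinesins it was in 2 (14.3%), those of Kif26b and Kifc5b. Of the 23 windows of genes that work with mitotic kinesins, such as those for mitotic kinases and kinetochore proteins, 17 held TTTGAA (73.9%). In 13 of these 23 windows (56.5%) a match began within 30 bases of the start. CCAAT was found in 7 mitotic windows (63.6%), 4 transport windows (33.3%) and 37.4% of all windows. TTTGGCGC, a spelling of the site bound by E2F factors, was in 2 mitotic windows (18.2%), no transport window and 0.514% of all windows. The mitotic window without TTTGAA was that of Kif18a. Genes with no window matched were Kif20a, Kif5a, Kif5b, Kif13b, Kifc2, Kifc3, Kif19a, Kif21b and Kif28. A match describes the letters in the window and not a bound site.

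The 30 bases around the match nearest the start follow for the 10 mitotic genes that have one, each read 5′ to 3′ on the strand of its gene. Capitals mark that match to TTTGAA, which reads TTCAAA where it lies on the other strand. In Kif20b another match follows it directly and is left in lower case.
Kif11 (chr19:37376351-37376380, + strand): tcgtctccatttTTCAAAattgaggcgcgg
Kif14 (chr1:136467608-136467637, + strand): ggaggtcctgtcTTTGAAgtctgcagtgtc
Kif15 (chr9:122951050-122951079, + strand): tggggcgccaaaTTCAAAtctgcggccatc
Kif18b (chr11:102925104-102925133, - strand): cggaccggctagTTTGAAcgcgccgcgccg
Kif20b (chr19:34922353-34922382, + strand): gagccgccattgTTTGAAtttgaaaaccgg
Kif22 (chr7:127042420-127042449, - strand): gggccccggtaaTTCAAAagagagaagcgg
Kif23 (chr9:61946780-61946809, - strand): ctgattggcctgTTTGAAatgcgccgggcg
Kif2c (chr4:117178858-117178887, - strand): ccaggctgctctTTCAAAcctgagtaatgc
Kif4 (chrX:100626072-100626101, + strand): ctctgggatcaaTTTGAAacttggcggtta
Kifc1 (chr17:33890615-33890644, - strand): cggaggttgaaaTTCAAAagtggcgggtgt

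The windows of 1 mitotic and 1 transport gene, without their last 20 bases, show the contrast. Kif23, which encodes a motor of the central spindle needed for cytokinesis, has a CCAAT box (here ATTGG, on the other strand) just upstream of TTTGAA, both in capitals. Kif1c, the most highly expressed kinesin gene of these tumours, has neither.
Kif23 (chr9:61946770-61947049, - strand): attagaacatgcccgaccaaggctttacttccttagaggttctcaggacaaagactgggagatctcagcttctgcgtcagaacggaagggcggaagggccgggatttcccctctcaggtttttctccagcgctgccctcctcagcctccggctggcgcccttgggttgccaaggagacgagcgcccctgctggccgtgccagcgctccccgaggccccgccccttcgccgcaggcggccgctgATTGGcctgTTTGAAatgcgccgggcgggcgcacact
Kif1c (chr11:70700298-70700577, + strand): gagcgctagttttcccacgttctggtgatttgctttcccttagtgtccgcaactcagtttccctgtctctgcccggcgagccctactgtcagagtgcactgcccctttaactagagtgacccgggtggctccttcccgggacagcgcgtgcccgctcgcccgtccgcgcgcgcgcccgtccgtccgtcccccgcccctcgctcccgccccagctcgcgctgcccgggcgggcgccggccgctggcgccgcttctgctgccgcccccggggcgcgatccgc

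The libraries held 28139419 to 37180730 expected counts in 27HC tumours and 32768437 to 41179056 in DMSO tumours (two-sided exact permutation test of the totals, p = 0.0559). Within a group no pair of libraries was as alike as counting error alone would make it. Of the labelled tissue's epithelial markers, Krt18 averaged 84.3 CPM (counts scaled to a common library total) in 27HC and 86.5 CPM in DMSO tumours, while Epcam averaged 2.36 and 3.50 CPM and Krt8 averaged 3.71 and 3.35 CPM in 27HC and DMSO tumours. In 5 libraries, 27HC_1_3, 27HC_1_5, 27HC_2_3, DMSO_1_5 and DMSO_2_3, the mean GC content of the transcripts counted was 49.8% to 50.01%, against 51.2% to 52.8% in the other 14. These 5 are called the low-GC libraries. They were set apart after seeing the data, from the counts of all genes, kinesins included, and results that rest on them are given with and without them.

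Per kilobase of exon, which allows for transcript length but not for GC content, levels were ranked by their mean over all 19 tumours. Transport kinesins held the top 2 places and mitotic kinesins the next 4. The order depends on the libraries counted: Kifc3 averaged 58.5 CPM in the low-GC libraries and 137.6 CPM in the others. Kif5b averaged 167.8 CPM in the low-GC libraries and 65.3 CPM in the others. Kif1c, which carries vesicles along microtubules, averaged 63.1 ± 20.8 CPM per kilobase (SD, n = 19) and Kifc3, a minus-end motor of epithelial junctions, 29.8 ± 10.7. Kif20a, a motor of the central spindle and cytokinesis, followed at 28.7 ± 5.70 CPM per kilobase, Kif22, which pushes chromosome arms, at 23.4 ± 6.06, Kif18b, which shortens astral microtubules, at 22.5 ± 5.48, and Kifc1, which gathers spindle poles, at 15.5 ± 3.54. In this order Kif1c stood above Kifc3, and Kif18b above Kifc1, by more than the SD of either gene, while the steps from Kifc3 to Kif20a, from Kif20a to Kif22 and from Kif22 to Kif18b were smaller than that spread. Kif5b, the heavy chain of conventional kinesin found in most tissues, had 15.3 ± 8.32 CPM per kilobase and Kif3a, a subunit of the heterotrimeric motor of cilia, 11.99 ± 4.64. Of the remaining transport genes with the highest levels, Kif3c had 11.1, Kif3b 9.73, Kif13a 7.26 and Kif1b 6.37 CPM per kilobase. In the third class the highest were Kif21b, a motor that also slows microtubule growth, with 11.6, Kifc5b with 7.79, Kif2a, which takes microtubules apart, with 4.83, and Kif7, a regulator of Hedgehog signalling in cilia, with 3.23. Kif11, the motor that pushes spindle poles apart, was low at 2.09 ± 1.30 CPM per kilobase. The neuronal motors Kif1a, Kif5a and Kif5c were lower still, between 0.417 and 0.908 CPM per kilobase. Kifc1 and Kifc5b are near-identical paralogs, so the split of reads between them is uncertain. They stand in different classes here, Kifc1 with the mitotic and Kifc5b with the other kinesins. The promoter windows of both held TTTGAA and CCAAT, so the contrast of these 2 classes depends on where Kifc5b is placed.

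No kinesin gene passed the test between 27HC and DMSO tumours. With edgeR's quasi-likelihood test and Benjamini-Hochberg adjustment 0 of 39 kinesin genes and 0 of 15629 genes were called at an adjusted p of 0.05 (0% of all genes), with a smallest adjusted p of 0.838 over all genes. DESeq2 called 2 genes, none of them a kinesin, and limma-voom called 0. At an unadjusted p under 0.05 there were 2 of 39 kinesin genes, both mitotic and both lower in 27HC tumours, and 0 higher, against 2.27% of all genes in either direction, 0.979% lower and 1.29% higher. The family was picked out with this contrast in view, so these values are a description and nothing is read from the share. In bulk tumours fewer dividing cells and less RNA in each cannot be told apart.

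Kif20a (ENSMUSG00000003779, chromosome 18, GRCm38 positions 34624613 to 34633277) was the kinesin with the smallest unadjusted p. It ran from 80.1 through a median of 100.2 to 118.2 CPM in 27HC tumours, and from 92.8 through 125.3 to 168.3 CPM in DMSO tumours. The groups overlapped, but all 10 27HC tumours lay below the DMSO median, and 7 of the 9 DMSO tumours lay above the highest 27HC tumour. The means were 101 ± 10.9 CPM (SD, n = 10) in 27HC and 130 ± 23.4 CPM (SD, n = 9) in DMSO tumours, a log2 fold change of -0.36 (SE 0.11, 95% confidence interval -0.59 to -0.13, edgeR unadjusted p = 0.00393, adjusted p = 0.9998). Exons of Kif20a overlap those of Cdc23, a gene of the anaphase-promoting complex on the opposite strand, which averaged 56.8 CPM in 27HC and 60.2 CPM in DMSO tumours (log2 fold change -0.08, SE 0.08).

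Kif2c, a microtubule depolymerase that corrects faulty attachments at kinetochores, came next. It ran from 23.9 through a median of 31.4 to 39.5 CPM in 27HC tumours, and from 24.9 through 37.4 to 45.6 CPM in DMSO tumours. The groups overlapped, with 9 of 10 27HC tumours below the DMSO median and 4 of the 9 DMSO tumours above the highest 27HC tumour (log2 fold change -0.32, SE 0.12, edgeR unadjusted p = 0.0183, adjusted p = 0.9998). Kifc1 ran from 23.9 through 33.9 to 45.9 CPM in 27HC and from 28.1 through 41.5 to 56.2 CPM in DMSO tumours, again with 9 of 10 27HC tumours below the DMSO median (log2 fold change -0.22, SE 0.15).

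The other 9 mitotic kinesins had differences that were small beside their standard errors. Kif18b, Kif22 and Kif23 had log2 fold changes of -0.04, -0.04 and -0.02 with standard errors of 0.17 to 0.20. Kif4, a chromosome motor of the spindle midzone, had -0.08 (SE 0.26) and Kif14, a motor of late cytokinesis, -0.08 (SE 0.20). For Kif11 the log2 fold change was -0.08 with a 95% confidence interval of -0.88 to 0.72, an interval that takes in clearly lower and clearly higher levels in 27HC tumours. Kif15, a second spindle motor that can stand in for Kif11, had -0.01 (SE 0.47), Kif18a, which damps chromosome movement at the spindle equator, 0.05 (SE 0.40), and Kif20b, a motor of late cytokinesis, 0.24 (SE 0.41). Over the 12 mitotic kinesins the median log2 fold change was -0.06, and 10 of them were below 0, where the median over all genes was 0.01. Of all 15629 genes tested, 7199 were below 0.

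Transport kinesins lay slightly to the other side. Of the 15 genes 10 had a fold change above 0, with a median log2 of 0.05, and none had an unadjusted p under 0.05. Of all 15629 genes tested, 8430 were above 0. Kif1c averaged 476 ± 163 CPM in 27HC and 441 ± 145 CPM in DMSO tumours, and Kif5b averaged 93.0 ± 51.5 CPM in 27HC and 91.4 ± 51.8 CPM in DMSO tumours (SD, n = 10 and 9). Kif3b, a partner of Kif3a, had the smallest unadjusted p on the lower side of this class (log2 fold change -0.19, SE 0.13, p = 0.149), and Kif5a had the fold change furthest above 0 (0.27, SE 0.27). The smallest unadjusted p values above 0 in the whole family were those of Kif7 (log2 fold change 0.17, SE 0.16, p = 0.311), Kif2a (0.23, SE 0.23, p = 0.328) and Kif5a (p = 0.330). The 12 tested members of the third class had a median of 0.01. For all 39 genes the CPM ranges of 27HC and DMSO tumours overlapped, as they did for all genes tested (0% did not).

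**Figure D1:**
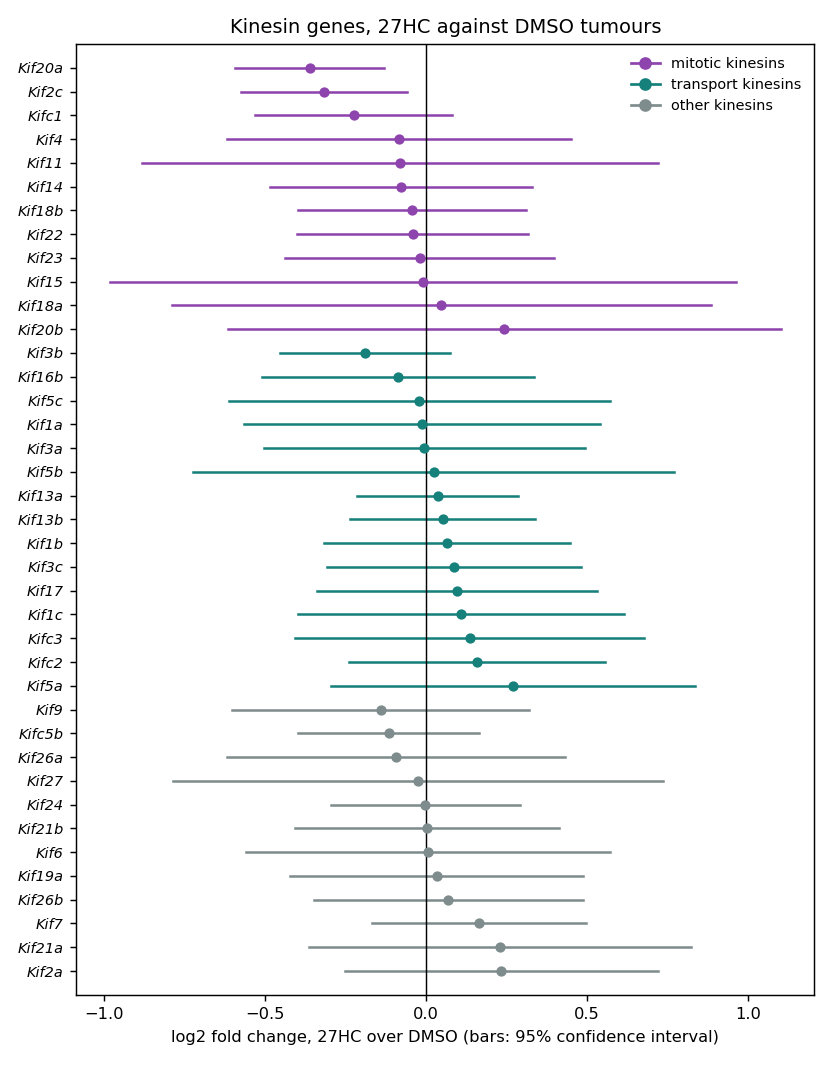
Log2 fold change of each of the 39 tested kinesin genes, 27HC over DMSO, with its 95% confidence interval from edgeR, grouped into mitotic (purple), transport (green) and other (grey) kinesins. Kif20a, at -0.36, and Kif2c, at -0.32, are the 2 genes whose interval does not reach 0, and no adjusted p was under 0.05.

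Genes that work with the motors are set beside them here. Of 25 partners of mitotic kinesins, 20 had a log2 fold change under 0 (median -0.06) and none had an unadjusted p under 0.05. Beside these, 7199 of all 15629 genes tested were under 0. Tpx2, the spindle assembly factor that activates Aurora A, averaged 102 ± 24.1 CPM in 27HC and 122 ± 25.2 CPM in DMSO tumours (log2 fold change -0.26, SE 0.15). Racgap1, which binds Kif23 in the centralspindlin complex, averaged 145 ± 20.4 CPM in 27HC and 165 ± 18.98 CPM in DMSO tumours (-0.18, SE 0.10). Aurkb, the kinase of the chromosomal passenger complex, and Plk1, a mitotic kinase that docks on Kif20a, had differences of 0.02 (SE 0.09) and -0.03 (SE 0.26). The kinetochore kinesin Cenpe, whose symbol lies outside the naming rule, averaged 50.7 ± 37.3 CPM in 27HC and 46.7 ± 31.0 CPM in DMSO tumours. The proliferation marker Mki67 had a log2 fold change of 0.18 (SE 0.41). Of 15 genes of the G1 and S phases 10 were below 0 (median -0.08), and of 15 tested cargo adaptors and regulators of transport kinesins 9 were above 0 (median 0.01), in both lists with no unadjusted p under 0.05. Klc1, a kinesin light chain, averaged 160 ± 44.3 CPM in 27HC and 148 ± 25.1 CPM in DMSO tumours, and Kifap3, the cargo subunit that joins Kif3a and Kif3b, 33.1 ± 7.35 and 34.9 ± 8.13 CPM in 27HC and DMSO tumours.

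Some lists of markers of other cells in the tumours leaned above or below 0, but none of these genes had an adjusted p under 0.05. The counts at an unadjusted p under 0.05 stand beside 2.27% of all genes. All 12 skeletal muscle markers had a fold change above 0 (median log2 1.64, 2 at an unadjusted p under 0.05), and they summed to 5.86 to 4192 CPM in 27HC and 7.59 to 1574 CPM in DMSO tumours. T and NK cell markers were below 0 in 11 of 12 genes (median -0.23), with sums of 45.5 to 145.2 CPM in 27HC and 55.5 to 206.7 CPM in DMSO tumours. Macrophage markers were below 0 in 8 of 8 genes (median -0.17), with sums of 1305 to 2286 CPM in 27HC and 1487 to 2594 CPM in DMSO tumours. These lists thus leaned in different directions. Fat cell markers were below 0 in 5 of 5 tested genes (median -0.29, 1 at an unadjusted p under 0.05), with sums of 26.3 to 140.4 CPM in 27HC and 77.4 to 150.9 CPM in DMSO tumours. Of 6 tested neutrophil markers 3 were above 0 and 2 of them had an unadjusted p under 0.05, with sums of 62.3 to 161.3 CPM in 27HC and 55.3 to 113.01 CPM in DMSO tumours. Of 10 tested nerve and Schwann cell markers 2 were lower at an unadjusted p under 0.05, with sums of 34.9 to 51.2 CPM in 27HC and 35.3 to 67.0 CPM in DMSO tumours. B cell, endothelial, fibroblast, mammary epithelial and cilium markers had no gene at an unadjusted p under 0.05. Every gene of these lists had counts in some tumour, and the part of these cells in the kinesin values was not tested.

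Many kinesin genes varied more between tumours of the same group than between the groups, and they did so along the GC content of their transcripts. From the lowest to the highest of the 19 tumours Kif15 spanned 15.4-fold and Kif20a 2.10-fold. In the 5 low-GC libraries, 3 of 27HC and 2 of DMSO, Kif15 ran from 21.3 to 53.4 CPM, against 3.47 to 19.4 CPM in the other 14, and its mean was 3.53 times as high. Kif11 ran from 13.96 to 25.6 CPM in the low-GC libraries, against 1.96 to 11.7 CPM in the others. Kif5b, a transport gene, was also higher there, with 149.9 to 174.0 CPM in the low-GC libraries and 15.6 to 107.8 CPM in the others. None of these 3 genes overlapped between the sets, nor did Kif20b, Kif4, Kif23 and Kif3a, all higher in the low-GC libraries. That made 7 of 39 kinesin genes, where 12.1% of all genes were higher in all 5.

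At the other end of the scale were genes with more GC-rich transcripts, 2 mitotic ones among them. Kifc3 ran from 41.8 to 80.5 CPM in the low-GC libraries, against 90.1 to 174.2 CPM in the others. Kif18b ran from 46.2 to 57.0 CPM in the low-GC libraries, against 70.0 to 107.7 CPM in the others, and Kif22 from 29.8 to 37.9 CPM, against 40.9 to 77.9 CPM. With Kif21b and Kif3c, 5 of 39 kinesin genes were lower in all 5 low-GC libraries, where 11.8% of all genes were. Kif1c averaged 250.5 CPM in the low-GC libraries and 533.8 CPM in the others, with ranges that overlapped. Kif20a had the same mean in both sets, 114.5 and 114.7 CPM in the low-GC and the other libraries, and Kif2c had 38.1 and 33.1 CPM.

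**Figure D2:**
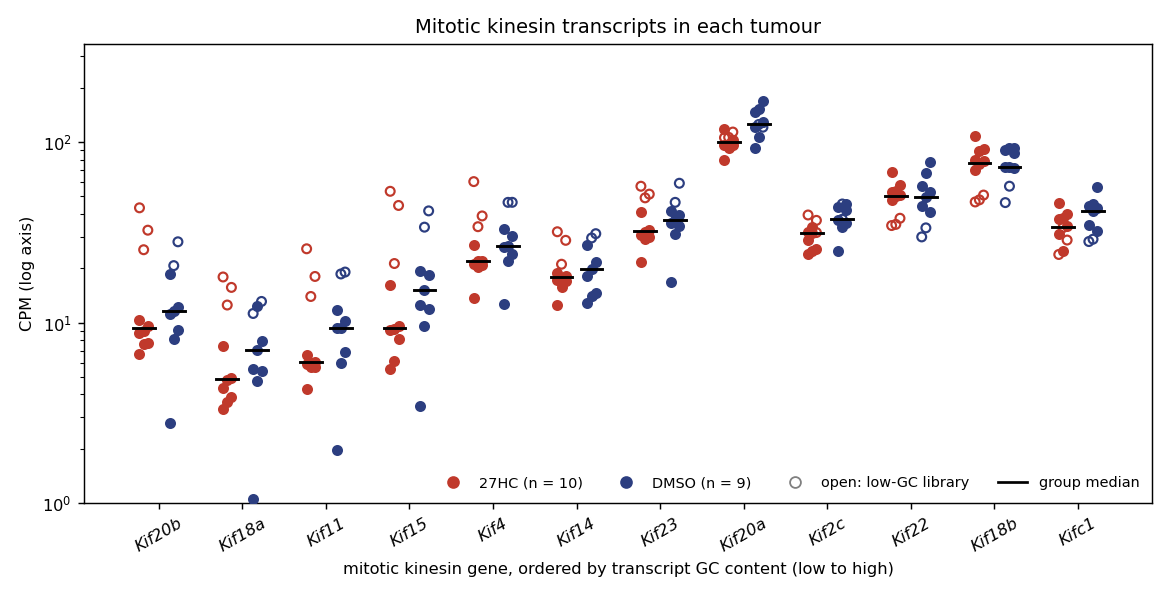
CPM of the 12 mitotic kinesin genes in each 27HC tumour (red, n = 10, left) and DMSO tumour (blue, n = 9, right) on a log axis, genes ordered by transcript GC content; open circles are the 5 low-GC libraries and black bars the group medians. The open circles stand above the filled ones for Kif20b, Kif11, Kif15, Kif4 and Kif23, mix with them for Kif20a and stand below them for Kif22 and Kif18b.

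Sorted by transcript GC content, all 7 kinesin genes under 45% were higher on average in the low-GC libraries, 10 of 12 at 45% to 50% were, and 5 of 20 at 50% and over were. The median log2 ratios of these classes were 1.37, 0.67 and -0.59, and those of all genes in the same classes were 1.01, 0.42 and -0.43. Across the 39 genes the log2 ratio and the GC content had a Pearson r of -0.83, against -0.69 over the 15406 genes with a GC value. Genes are not independent replicates and the library split was made from the same counts, so these values carry no test. Within the mitotic genes the coefficient was -0.94 (12 genes) and within the transport genes -0.68 (15 genes). The low-GC libraries also held more genes with at least 1 count, 19820 to 21064 against 18614 to 20137 in the others. Their mammary epithelial markers summed to 45.7 to 115.7 CPM, against 80.2 to 151.3 CPM. Those markers had a median transcript GC content of 56.4%, within the class whose median over all genes was -0.43, and their own median log2 ratio was -0.83. Other marker lists with a median GC content of 50% or over differed from this. Their median log2 ratios were 2.65 for skeletal muscle, 0.97 for B cell and 0.17 for cilium markers. For fat cell, macrophage, and nerve and Schwann cell markers they were 0.10, -0.0007 and -0.35. The part of RNA quality, library preparation or tumour composition in the differences between the low-GC and the other libraries was not tested.

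**Figure D3:**
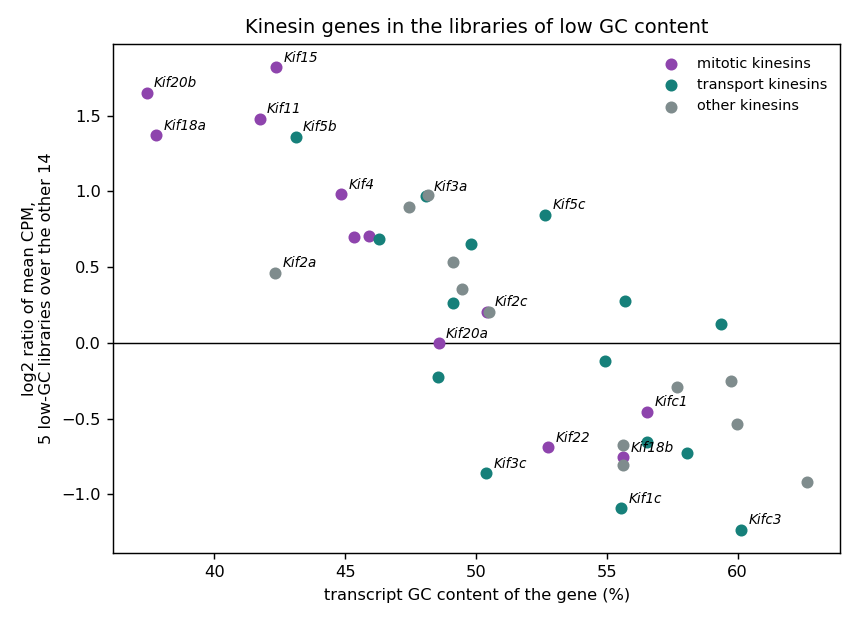
Each point is a tested kinesin gene: GC content of its transcript in percent against the log2 ratio of its mean CPM in the 5 low-GC libraries over the other 14, mitotic genes purple, transport genes green, other genes grey. Points fall from Kif20b, Kif15 and Kif11 at the upper left to Kifc3 at the lower right, and Kif20a lies at 0.

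The DMSO library with the highest mean GC content, DMSO_1_2, stood at the opposite pole. It held the lowest value of all 19 tumours for Kif11 (1.96 CPM), Kif15 (3.47 CPM), Kif18a (1.05 CPM) and Kif5b (15.6 CPM). For Kif20a it was in the middle of its group, with 130.1 CPM.

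**Figure D4:**
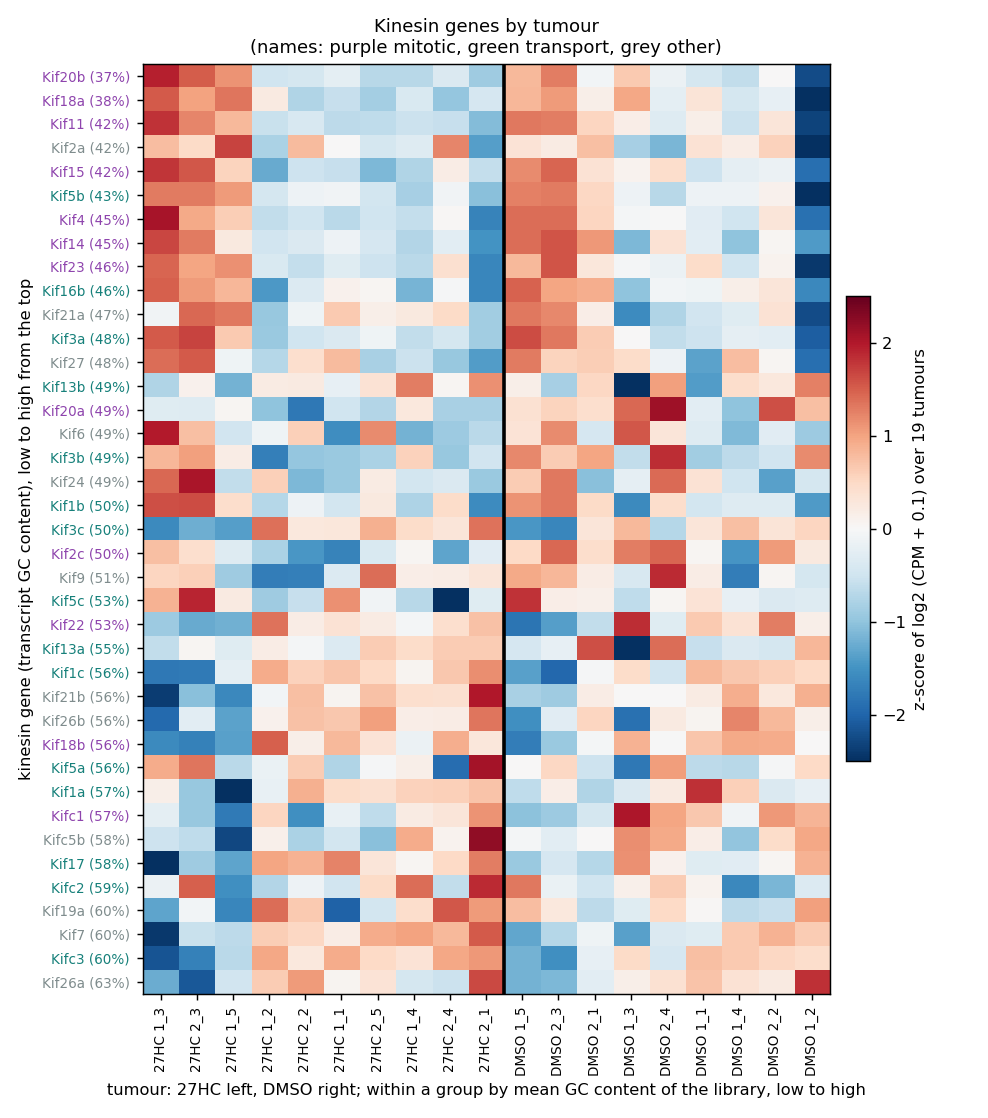
Z-scores of log2 (CPM + 0.1) over the 19 tumours for the 39 tested kinesin genes, ordered by transcript GC content from low (top) to high (bottom); 27HC tumours are left of the black line and DMSO tumours right, each ordered by the mean GC content of the library. Both groups show red at the top and blue at the bottom on their left edge, where the low-GC libraries stand. DMSO_1_2, at the far right, shows blue at the top and a mix of shades at the bottom.

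Some kinesin genes that varied together belong to different classes. Because the 5 low-GC libraries form a cluster of their own, correlations of log2 CPM are given over the other 14 tumours, as a description with no test. The 66 pairs of mitotic genes had a median Pearson r of 0.29, of which 11 were below 0. The 105 pairs of transport genes had a median of -0.063 and the 180 pairs of 1 mitotic and 1 transport gene a median of -0.11. Among the 5 mitotic genes with a transcript GC content under 45%, Kif11, Kif15, Kif18a, Kif20b and Kif4, all 10 pairs were above 0.5, with a median of 0.80, while the 21 pairs among the other 7 mitotic genes had a median of 0.12.

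Kif11 and Kif4 had a Pearson r of 0.89 and a Spearman rho of 0.79 over the 14 tumours, and r was 0.79 without the 2 tumours in which Kif11 was farthest from its median. Kif11 and the transport gene Kif5b had r = 0.90 and rho = 0.55, and r = 0.62 without those 2 tumours, of which DMSO_1_2 is one. Kif20a and Kif2c had r = 0.90 and rho = 0.89, and r = 0.85 without the 2 tumours in which Kif20a was farthest from its median, DMSO_2_2 and DMSO_2_4. Kif11 and Kif20a had r = 0.20 and rho = 0.41. Without DMSO_1_2 and DMSO_2_1, the 2 tumours in which Kif11 was farthest from its median, r was 0.59, so r for this pair depends on the tumours counted. Kif20a and Kif23, which share the central spindle, had r = 0.094 and rho = 0.25, and r = -0.070 without DMSO_2_2 and DMSO_2_4.

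After each library's counts were corrected for transcript GC content, an alternative added after seeing the data, the difference between these classes was smaller. The 10 pairs under 45% then had a median r of 0.56 over the 14 tumours, with 7 of 10 above 0.5, and the 21 pairs among the other 7 mitotic genes a median of 0.24. Kif20a and Kif2c kept r = 0.89 over the 14 tumours and Kif20a and Kifc1 had 0.92, against 0.66 before the correction. Kif11 and Kif4 had 0.80 after the correction. Across the 2 classes, Kif11 and Kif20a had 0.17, against 0.20 before it, while Kif11 and Kif18b had 0.66, against 0.20. The 35 pairs of 1 mitotic gene from each class had a median of 0.36 after the correction, with 34 above 0. Before it their median was 0.28, with 30 above 0. For the transport genes Kif1c and Kifc3 r was 0.43 after the correction, against 0.92 before it.

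By Pearson correlation with the mean z-score of the 12 mitotic genes over all 19 tumours, the 10 most alike genes outside the family were Ppat (r = 0.92), Ercc6l, Dlgap5, Nop58, Psmd1, Gen1, Fignl1, Ptcd3, Tfb1m and Hmgb2 (r = 0.88). Over the 14 tumours outside the low-GC set, 5 of these stayed among the 10 most alike, Ercc6l, Fignl1, Hmgb2, Nop58 and Ppat. For Kif20a alone the 10 were Hars (r = 0.90), Fig4, Sephs1, Hdac1, Gtf2f1, Bub1b, Tacc3, Rbks, Rdh11 and Exosc2 (r = 0.83), and 4 of them, Bub1b, Fig4, Hars and Hdac1, stayed over the 14 tumours. Of 25 partners of mitotic kinesins 3 were among the 100 genes most like the mitotic mean and 1 among the 100 most like Kif20a, and over the 14 tumours the counts were 2 and 1.

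The treatment difference was also set against the first of the 2 numbers in each title, which is 1 or 2 and has no stated meaning (9 tumours carry a 2, of which 5 are 27HC, and 10 carry a 1, of which 5 are 27HC). Tumours of number 2 against number 1 differed in 0 kinesin genes and 0 genes overall by edgeR at an adjusted p of 0.05 (0%), and 0 of 39 kinesin genes had an unadjusted p under 0.05, against 2.46% of all genes; limma-voom also called 0. The smallest unadjusted p values were those of Kif26b (0.0758), Kif13a (0.0776) and Kif5a (0.0952). The mitotic kinesins had a median log2 fold change, 27HC over DMSO, of -0.43 among tumours of number 2, with 10 of 12 below 0, and of 0.27 among tumours of number 1, with 5 of 12 below 0. The interaction of treatment and number was not called by edgeR for any kinesin or any other gene (0%), with 0 kinesin genes at an unadjusted p under 0.05, against 1.43% of all genes; limma-voom also called 0. Its smallest unadjusted p values in the family were those of Kif21b (log2 interaction 0.72, SE 0.37, p = 0.0644), Kif20a (-0.41, SE 0.22, p = 0.0733) and Kif14 (-0.63, SE 0.38, p = 0.112). Kif20a was lower in 27HC than in DMSO tumours under both numbers, with a log2 fold change of -0.60 (SE 0.17) in number 2 and -0.14 (SE 0.18) in number 1.

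The low-GC libraries were spread unevenly over the numbers: in number 2 they were 1 of 5 27HC and 1 of 4 DMSO tumours, and in number 1 they were 2 of 5 27HC and 1 of 5 DMSO tumours. Without them the interaction was below 0 for 11 of 12 mitotic kinesins (median log2 -0.44, against -0.59 with them, where 9 of 12 were below 0), and it was again called for no gene. Kif14 was then the 1 kinesin gene of 39 with an unadjusted p under 0.05 (log2 interaction -0.73, SE 0.25, p = 0.0109, adjusted p = 0.869 by edgeR), against 4.5% of all genes. Kif20a had -0.52 (SE 0.25, p = 0.0545). Between tumours of number 2 and number 1, 2 kinesin genes had an unadjusted p under 0.05 without them, Kif1b (log2 fold change 0.34, SE 0.14) and Kif15 (0.62, SE 0.26), against 6.99% of all genes, and none was called.

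Without the 5 low-GC libraries, an alternative added after seeing the data, 7 tumours of 27HC and 7 of DMSO remained, and the 5 themselves, 3 against 2, were too few for a comparison of their own. Among the 14, 11 of 12 mitotic kinesins had a fold change below 0 and the median log2 was -0.26, where the median over all genes was -0.002. Kif20a then had -0.43 (SE 0.14) and Kif2c -0.39 (SE 0.13), while Kif11 had -0.44 (SE 0.26) and Kif15 -0.50 (SE 0.29). Adjusted p values were 0.787 or above, none of the 39 kinesin genes was called, and 2 had an unadjusted p under 0.05, against 6.01% of all genes. With the GC correction and all 19 libraries the mitotic median was -0.09, and Kif20a had -0.35 (SE 0.12), Kif2c -0.32 (SE 0.11) and Kif11 -0.14 (SE 0.17). There 3 of 39 kinesin genes, Kif20a, Kif2c and Kifc1, had an unadjusted p under 0.05, against 3.1% of all genes, and none was called.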

How the data were processed

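RNA was measured in 19 tumours, 10 of 27HC and 9 of DMSO. The deposited table holds expected counts per gene, and the tools listed in the submitters' processing notes are limma, edgeR and kallisto 0.44.0, on the build GRCm38, with no role for each; how transcripts were summed to genes is not given in the sources used here. Expected counts were rounded to whole numbers and fitted with edgeR 4.0.16 (R 4.3.3) on treatment alone: TMM normalization, filterByExpr (15629 genes kept, 11167 left out), quasi-likelihood test, Benjamini-Hochberg adjustment over all genes kept. The script was tested on simulated data. CPM values were computed from the TMM-scaled totals, with a prior count of 2 for log2 CPM. Symbols, exon lengths and transcript GC content came from GENCODE M21 (GRCm38) and promoters from RefSeq (GRCm38.p6). Libraries were stranded, per the labels' protocols, but whether counting used strand is not stated. The members, roles, lists and the comparison were chosen with earlier results of these data known. Genes were named by a rule: all mitotic kinesins, the transport and other kinesins of highest level per kilobase, those of smallest unadjusted p in each fit, the most alike genes, and 8 fixed partners. The alternatives were DESeq2 1.42.0, limma-voom (limma 3.58.1), other scaling and filters, a replicate block, the first title number and leaving out each tumour. Added after seeing the data were leaving out the low-GC libraries and a loess correction of transcript GC content (span 0.3) per library.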

Additional observations from a re-analysis of the deposited data

Results flagged for a closer look

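In 3 of the 78 sets of values checked (each of 39 genes in 27HC and in DMSO tumours), 1 tumour stood apart from the rest of its group by Dixon's ratio, its gap to the nearest tumour over the range of the group; chance alone gives about 1 in 20. All 3 are low-expressed genes and the highest value of the DMSO group. Kif1a, a neuronal transport motor, reached 16.2 CPM in DMSO_1_1 (ratio 0.614). Kif26a, a kinesin without ATPase activity that acts in enteric nerve development, reached 4.596 CPM in DMSO_1_2 (ratio 0.4999), the DMSO library with the highest mean GC content. Kif5c, a neuronal heavy chain of conventional kinesin, reached 9.58 CPM in DMSO_1_5 (ratio 0.718), a low-GC library.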

How the results depend on the processing

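No kinesin gene was called at an adjusted p of 0.05 under any of the 11 alternatives or the 19 fits that left out 1 tumour. Over all genes DESeq2 called 2, where edgeR called 0. At an unadjusted p under 0.05 there were 2 kinesin genes, 2 or 3 with a tumour left out (3 without DMSO_1_5), 0 among tumours of first title number 1 only, and 3 with no filter and with the GC correction. Kif20a stayed below 0 throughout, from -0.41 to -0.31 with a tumour left out. The mitotic median log2 fold change ran from -0.24 (without 27HC_1_3) to 0.01 (without DMSO_2_3) with a tumour left out, was 0.00 without DMSO_1_5, and thus turned in sign without either of these 2 low-GC DMSO libraries; it was -0.18 without 27HC_2_3, -0.12 without 27HC_1_5 and -0.15 without DMSO_1_2. The transport median ran from -0.01 (without DMSO_1_3) to 0.08 and also turned without DMSO_2_3. Small differences turned easily: 22 of 39 genes kept their sign among tumours of number 1 only, 28 among those of number 2 only, 29 with the GC correction and 36 with DESeq2. The median r between mitotic and transport genes, -0.074 over all 19 tumours, ran from -0.12 to 0.045 (without DMSO_1_3), and that within mitotic genes, 0.30, from 0.23 to 0.38; the causes were not tested. Titles in both groups share 9 numbers, and deviations of same-numbered tumours correlated between -0.43 and 0.78. The highest value was that of 2_3, where both tumours are low-GC libraries. Differently numbered tumours were not set beside them, so these values cannot tell whether the numbers mark a pairing. With a replicate block the mitotic median was -0.07, the transport median 0.05, 0 genes were called and 2 kinesin genes had an unadjusted p under 0.05. Depth limits Kif12, Kif28 and Kif2b, which could not be compared.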
